A study of Mus musculus with 10 samples.

Results

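The genes described here are the natriuretic peptide receptors and the main genes of cyclic GMP (cGMP) signaling in the mouse melanoma line WT31 and its liver-passaged subline WT31_P5IV. The set holds 9 genes, namely Npr1, Npr2, Npr3, Prkg1, Prkg2, Pde5a, Pde6g, Pde6d and Pde9a, among 55385 gene identifiers in the data. The genes were chosen by their place in this pathway with the difference between the lines in these same libraries already known, so their values are a description and no p-value is given for them. Of the 9 genes, 8 had enough reads to enter the fit across 13620 genes, and Pde9a did not.

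The genotype of the mice that gave rise to WT31 was Tyr::NrasQ61K/°; INK4a−/−, and both groups share it, since the subline was grown out of WT31. WT31_P5IV cells had gone through 5 rounds of growth in the liver after injection into a vein, and WT31 cells had not. RNA came from untreated, sub-confluent cells of either line grown in RPMI 1640 medium with fetal calf serum, with 5 libraries per line. The libraries are labelled biological replicates, with no statement that they came from separate cultures, so errors and p-values measure only the spread between these samples. Each group is a single cell line, so passage through the liver cannot be told apart from any other change between this subline and its parent.

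Natriuretic peptides are small hormones known for lowering blood pressure and for acting on bone growth. Npr1 and Npr2 are receptors with a guanylyl cyclase inside the cell, so that binding of a peptide produces cGMP, whereas Npr3 lacks a cyclase and takes up peptides for degradation. cGMP activates the protein kinases encoded by Prkg1 and Prkg2, opens cGMP-gated channels, and is broken down by phosphodiesterases or pumped out of the cell.

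Libraries held 24255389 to 25750639 estimated counts, so 3 counts, taken as the limit of detection, corresponded to 0.113 to 0.129 CPM, the count scaled to the size of the library. This limit covers counting error only. Of the 7 melanocyte markers checked, all were measured, with summed levels of 17027 to 18422 CPM in WT31 and 22203 to 25700 CPM in WT31_P5IV. Dct led them at 5886 and 10221 CPM, and without it the sums were 11447 to 12405 and 12842 to 14591 CPM. Single markers were called in both directions (3 higher, 2 lower), as were 34.6% and 33.9% of all tested genes. Endothelial markers, led by Pecam1 (0.131 and 0.176 CPM), summed to at most 0.491 CPM in any library, with Cdh5 and Lyve1 at 0 counts. Leukocyte markers summed to 5.07 to 6.79 CPM in WT31 and 4.78 to 7.10 CPM in the subline, of which Lyz2 fell from 4.33 to 1.08 CPM. Without Lyz2 the sums were 0.983 to 2.33 and 3.73 to 5.86 CPM, mostly Cd68, named after its values were seen, which rose from 1.37 to 3.73 CPM. Hepatocyte markers other than Trf, which was at 337 and 560 CPM, summed to 0.302 to 0.587 CPM in WT31 and 0.402 to 1.30 CPM in the subline. Fgb was at 0 counts throughout, and Alb and Apoa1 were at 0 counts in all WT31 libraries, while in the subline Alb had 9 counts in library 1 only and Apoa1 0 to 4 counts. In such bulk samples, fewer cells that express a gene and less RNA per cell cannot be told apart.

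Among the receptors, Npr2 was higher in WT31_P5IV, Npr1 was higher by a smaller amount and from a low level, and Npr3 was slightly lower. Compared per length, the order of the 3 genes changed: Npr3 led in WT31 and Npr2 led in WT31_P5IV. The sequences of the 250 bases before each RefSeq start site are given to show how unlike these receptor windows are, 5′ to 3′ on the strand of the gene in GRCm38.p6, with GC boxes in capitals. They lie at chr3:90465867-90466116 on the minus strand, chr4:43631685-43631934 on the plus strand and chr15:11907372-11907621 on the minus strand. The RefSeq start of Npr3, at 11907371, lies outside the gene span used for its counts, which ends at 11907287.
Npr1: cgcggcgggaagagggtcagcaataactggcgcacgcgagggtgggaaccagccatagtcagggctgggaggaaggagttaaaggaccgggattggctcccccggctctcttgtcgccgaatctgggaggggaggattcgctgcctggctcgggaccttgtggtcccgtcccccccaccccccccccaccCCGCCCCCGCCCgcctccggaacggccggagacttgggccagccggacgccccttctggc
Npr2: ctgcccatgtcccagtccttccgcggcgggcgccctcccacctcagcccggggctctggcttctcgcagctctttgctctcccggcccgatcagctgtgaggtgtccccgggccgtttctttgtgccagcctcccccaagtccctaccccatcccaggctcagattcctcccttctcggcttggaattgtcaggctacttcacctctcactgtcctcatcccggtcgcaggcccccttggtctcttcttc
Npr3: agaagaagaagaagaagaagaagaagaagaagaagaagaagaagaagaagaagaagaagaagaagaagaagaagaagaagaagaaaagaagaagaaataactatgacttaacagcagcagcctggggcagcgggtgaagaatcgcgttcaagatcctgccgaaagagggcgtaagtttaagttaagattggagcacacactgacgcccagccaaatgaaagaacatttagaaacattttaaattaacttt
The Npr1 window held 21 CpG dinucleotides and 70.4% G or C, the Npr2 window 13 and 64.4%, and the Npr3 window, which opens with a long GAA repeat, 6 and 38.8%. The median over 32851 such RefSeq windows was 6 CpG. Of the motifs searched on both strands, the GC box GGGCGG occurred in 32.7% of all windows, the E-box CACGTG in 6.02%, CATGTG in 12.3%, the TATA box TATAAA in 12.4% and the cAMP response element TGACGTCA in 1.55%. Only the GC box was present in these 3 windows, as 2 matches in Npr1, whose first bases lie 60 and 54 bases before the start. A match is only a match of letters, and the data contain no measurement of binding. RefSeq promoter sequences were matched for 6 of the 9 genes.

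Npr2 (ENSMUSG00000028469.15, chr4:43631935-43651244, plus strand), the receptor for C-type natriuretic peptide, was read at 8.34, 8.81, 8.42, 8.95 and 7.04 CPM in WT31 libraries 1 to 5. In WT31_P5IV it was read at 27.7, 25.8, 28.9, 24.5 and 25.7 CPM. Every library of the subline was thus far above every library of the parent, and the mean rose from 8.31 ± 0.755 to 26.5 ± 1.75 CPM (SD, n = 5 each). The ratio of the means was 3.19 and the log2 fold change 1.67 (SE 0.07), which placed Npr2 at rank 437 of the 13620 genes by absolute log2 fold change. On the other strand, Gm12473 overlaps 266 exonic bases of Npr2, or 5.70%, and the strand setting of the counting is not given in the sources used here. Gm12473 had 7 to 17 counts in WT31 and 31 to 49 in WT31_P5IV, against 178 to 233 and 583 to 720 counts of Npr2. Its part in the Npr2 values was not tested.

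Npr1 (ENSMUSG00000027931.12, chr3:90450591-90465866, minus strand), the receptor for atrial and B-type natriuretic peptides, was read at 2.47, 2.19, 2.19, 2.47 and 2.53 CPM in WT31. The subline libraries gave 3.57, 4.20, 4.58, 2.86 and 3.34 CPM. The groups did not overlap, but the gap between library 4 of WT31_P5IV and the highest WT31 library was small beside the spread within the subline. Means were 2.37 ± 0.165 and 3.71 ± 0.684 CPM (SD, n = 5 each), a ratio of 1.56 and a log2 fold change of 0.65 (SE 0.13). These levels rest on 56 to 64 and 68 to 114 counts. Npr1 shares 9.22% of its 31-base words with another gene, Gm16048, which overlaps 559 of its exonic bases (11.7%) on the other strand and had 0 to 1 count in every library.

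Npr3 (ENSMUSG00000022206.7, chr15:11839896-11907287, minus strand), the clearance receptor, was read at 38.7, 48.2, 45.1, 40.2 and 36.4 CPM in WT31. In WT31_P5IV it was read at 32.8, 34.3, 33.3, 31 and 36.9 CPM. The groups overlapped, since library 5 of the subline lay above library 5 of the parent. Means were 41.7 ± 4.82 and 33.7 ± 2.19 CPM (SD, n = 5 each), with a log2 fold change of -0.31 (SE 0.07). In TPM, the level scaled to the library and to transcript length, the groups were just apart, at 8.95 to 13.6 and 7.31 to 8.84 TPM. Gm5144 overlaps 3.42% of the exonic bases of Npr3 on the other strand and had 3 to 8 counts in any library.

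**Figure D1:**
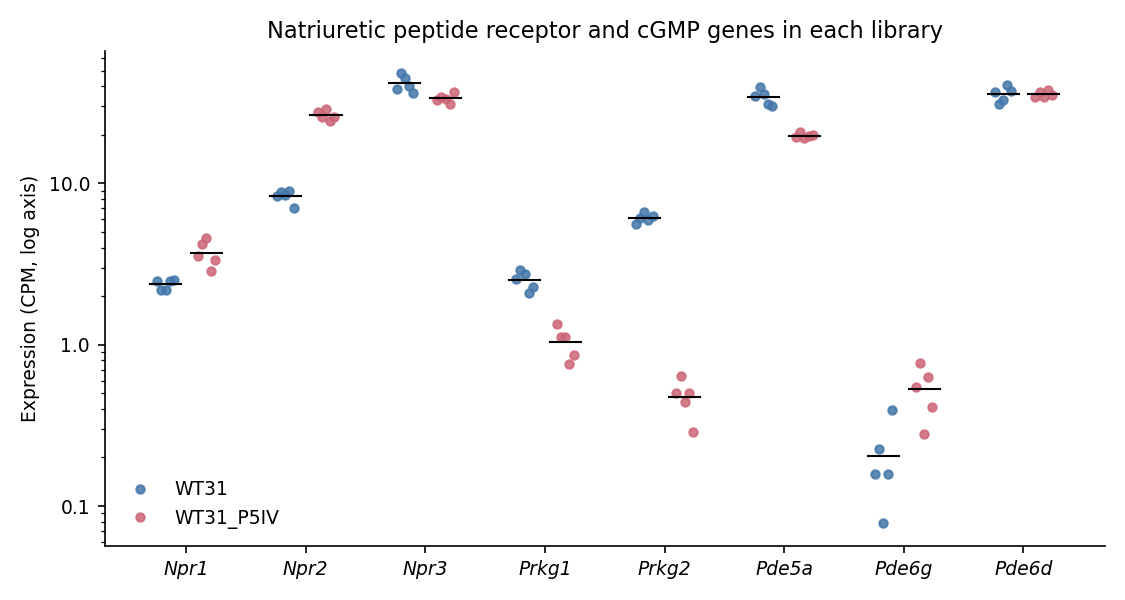
Expression in CPM on a log axis of the 8 genes with reads, for 5 WT31 (blue) and 5 WT31_P5IV libraries (red), with group means as black lines. Npr2 rose from a mean of 8.31 to 26.5 CPM and Prkg2 went from 6.14 to 0.476 CPM, while Pde6d stayed at 35.8 CPM and Pde6g overlapped between the lines.

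Compared per length within WT31, Npr3 was at 10.7 ± 1.92, Npr2 at 4.56 ± 0.538 and Npr1 at 1.04 ± 0.168 TPM, with no overlap between neighbours. In WT31_P5IV the order was Npr2 at 12.9 ± 0.984, Npr3 at 7.79 ± 0.640 and Npr1 at 1.76 ± 0.306 TPM, again without overlap. For Npr1 the TPM did not follow the counts between subline libraries, as library 4 was lowest at 2.86 CPM and highest at 2.21 TPM. The estimated counts behind 1 TPM of Npr1 ranged from 30.7 to 70.1 there, against 47.9 to 67.8 in WT31. The ratio of Npr2 to Npr3 TPM was 0.434, 0.403, 0.399, 0.454 and 0.470 in the WT31 libraries. It was 1.75, 1.57, 1.82, 1.71 and 1.44 in the subline, so the cyclase receptor exceeded the clearance receptor in all 5 subline libraries and in none of the parental ones. Npr2 made up 28.2 ± 1.21% of the TPM of the 3 receptors in WT31 and 57.4 ± 1.91% in WT31_P5IV. The share of Npr3 went from 65.3 ± 2.25% to 34.7 ± 2.21%, and that of Npr1 was 6.54 ± 1.52% and 7.84 ± 1.23%, which overlapped. Summed over the receptors, the level was 14.1 to 20.1 TPM in WT31 and 20.6 to 24.3 TPM in the subline.

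**Figure D2:**
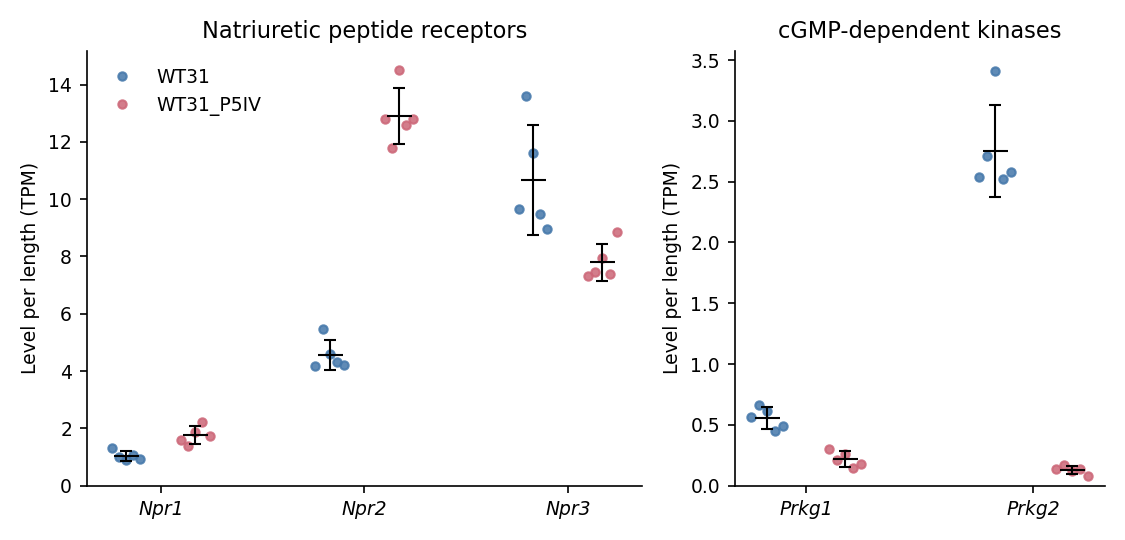
Levels per length in TPM of the 3 receptors (left) and the 2 cGMP-dependent kinases (right), with points for libraries and black bars for mean ± SD (n = 5). Npr3 was the highest receptor in WT31 at 10.7 TPM and Npr2 in WT31_P5IV at 12.9 TPM, and both kinases were lower in the subline.

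The genes whose levels most resembled those of a receptor were picked by Pearson's r of log2(CPM + 0.1) over the 10 libraries, which share the contrast between the lines, so that r mostly restates it. For Npr2 these were Lamb2 (r = 0.997), Slc26a11 (0.996) and Abca3 (0.996), and 1262 genes exceeded 0.95. For Npr1 they were Dgcr2 (0.977), Tmem198b (0.976) and Ppp1r13b (0.973), with 16 genes above 0.95. Npr3 was closest to Togaram1 (0.985), Zfp81 (0.979) and Nsd1 (0.975), with 72 genes above 0.95.

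Both cGMP-dependent kinases were lower in WT31_P5IV. Prkg2 (ENSMUSG00000029334.14, chr5:98929773-99037351, minus strand), the membrane-bound kinase known from intestine and bone, was read at 5.64, 6.12, 6.66, 5.97 and 6.29 CPM in WT31. In the subline it was read at 0.504, 0.643, 0.442, 0.505 and 0.289 CPM. These are 144 to 170 counts against 7 to 15 counts, so every subline library was still above the limit of 3 counts. Means were 6.14 ± 0.379 and 0.476 ± 0.128 CPM (SD, n = 5 each), 12.9-fold lower in the subline, with a log2 fold change of -3.68 (SE 0.14). Among all tested genes this was the 78th most negative change. On the TPM scale the difference was 20.9-fold, from 2.75 ± 0.376 to 0.132 ± 0.0331 TPM. With the libraries of a line pooled, 57.3 estimated counts (range over libraries 50.0 to 61.7) stood behind 1 TPM of Prkg2 in WT31. In the subline it was 86.5 (range 85.1 to 88.8). The difference between the lines in the mean log2 value per library was 0.59, beside a median of 0.08 over 13484 genes. The number of counts per TPM follows the length of the transcripts to which reads are assigned, and the annotated Prkg2 transcripts run from 387 to 4968 bases.

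Prkg1 (ENSMUSG00000052920.16, chr19:30564489-31765033, minus strand), the soluble kinase that relaxes smooth muscle, was read at 2.54, 2.91, 2.74, 2.08 and 2.29 CPM in WT31. The subline libraries gave 1.34, 1.11, 1.12, 0.757 and 0.866 CPM. The groups did not overlap, at 53 to 77 and 18 to 32 counts, and means of 2.51 ± 0.334 and 1.04 ± 0.232 CPM (SD, n = 5 each) gave a 2.41-fold lower level and a log2 fold change of -1.27 (SE 0.16). Smooth muscle and pericyte markers without Smtn, which led the list at 45.8 and 55.4 CPM, summed to 1.65 to 1.89 CPM in WT31 and 1.60 to 1.71 CPM in the subline, with Rgs5 at 0 counts. Within this list Cnn1 fell from 0.609 to 0.117 CPM (log2 fold change -2.33). It had 15 to 18 counts in WT31 and 1 to 4 in the subline, around the limit of detection. Acta2 rose from 0.275 to 0.757 CPM (log2 fold change 1.46), at 2 to 12 and 15 to 21 counts. Both were named after their values were seen and entered the test through the line where they were higher, so no p-value is given. Their part in the Prkg1 values was not tested. In WT31 Prkg2 exceeded Prkg1 by 4.99 ± 0.661 times in TPM. In WT31_P5IV the ratio was 0.632 ± 0.232, and all 5 libraries had less Prkg2 than Prkg1 (0.459 to 0.945), although the ranges of the 2 genes overlapped across libraries. The summed TPM of the kinases was 3.31 ± 0.430 in WT31 and 0.352 ± 0.0779 in the subline. These TPM values include a difference between the lines in the counts per TPM of Prkg2 (57.3 and 86.5) that Prkg1 hardly had (116 and 114).

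Pde5a, Pde9a, Pde6g and Pde6d carry the name of phosphodiesterase but differ in role and in behaviour here. Pde5a (ENSMUSG00000053965.10, chr3:122728947-122859374, plus strand), the cGMP-specific enzyme inhibited by sildenafil, was read at 34.6, 39.4, 35.9, 31.2 and 30.3 CPM in WT31 and at 19.4, 20.7, 19.1, 19.7 and 19.9 CPM in WT31_P5IV. All subline libraries fell in a narrow range below the parental ones. Means were 34.3 ± 3.71 and 19.8 ± 0.590 CPM (SD, n = 5 each), 1.73-fold lower, with a log2 fold change of -0.80 (SE 0.07). Pde9a (ENSMUSG00000041119.12, chr17:31386210-31476310, plus strand), which has a high affinity for cGMP, had 0 counts in all 10 libraries, so any level was below 0.113 to 0.129 CPM, depending on the library.

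Pde6g (ENSMUSG00000025386.2, chr11:120447605-120453500, minus strand) encodes the inhibitory gamma subunit of the phosphodiesterase of rod photoreceptors. It had 4, 6, 2, 4 and 10 counts in WT31 and 13, 18, 7, 15 and 10 in WT31_P5IV, so its values sit close to the limit of detection. The groups overlapped, since library 5 of WT31 had as many counts as library 5 of the subline and more than library 3. Means were 0.203 ± 0.120 and 0.528 ± 0.190 CPM (SD, n = 5 each), a ratio of 2.60 with the largest standard error in the set (log2 fold change 1.35, SE 0.38). The catalytic rod subunits were no higher than 6 counts for Pde6a and 1 count for Pde6b. Photoreceptor markers summed to 0.628 to 1.10 CPM in WT31 and 1.07 to 1.65 CPM in WT31_P5IV, led by Sag (0.259 and 0.424 CPM) and with Rcvrn at 0 counts. Their part in the Pde6g values was not tested.

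Pde6d (ENSMUSG00000026239.14, chr1:86542994-86582629, minus strand) encodes a carrier of farnesylated proteins that was first found bound to the rod enzyme. It was read at 36.8, 30.9, 33.1, 40.8 and 37.4 CPM in WT31 and at 34.4, 36.8, 34.5, 37.9 and 35.4 CPM in WT31_P5IV. The subline lay inside the parental range, and the means were 35.8 ± 3.86 and 35.8 ± 1.51 CPM (SD, n = 5 each), with a log2 fold change of 0.00 (SE 0.06). Per length, Pde6d was the highest gene of the set in either line, at 55.5 ± 4.76 and 49.1 ± 1.79 TPM, while log2 fold changes of all genes were shifted by a median of -0.167 on the log2(TPM + 0.1) scale relative to the counts. On the TPM scales Pde6d was called lower by limma at -0.17, about the size of that shift.

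In the fit across all genes, edgeR's quasi-likelihood test called 7 of the 8 tested genes of the set at an adjusted p under 0.05, against 68.5% of all tested genes. Of these, 3 were higher in WT31_P5IV (background 34.6%) and 4 lower (33.9%). With an absolute log2 fold change of at least 1 added, 4 were called (9.10%), of which Npr2 and Pde6g were higher (5.42%) and Prkg1 and Prkg2 lower (3.69%). The CPM ranges did not overlap for 5 of the 8 (54.1%), namely Npr1, Npr2, Prkg1, Prkg2 and Pde5a. Since the genes were selected on this same contrast, nothing is read from these counts. The median log2 fold change of the 8 genes was -0.15 and the median absolute value 1.03, beside 0.01 and 0.30 over all tested genes.

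**Figure D3:**
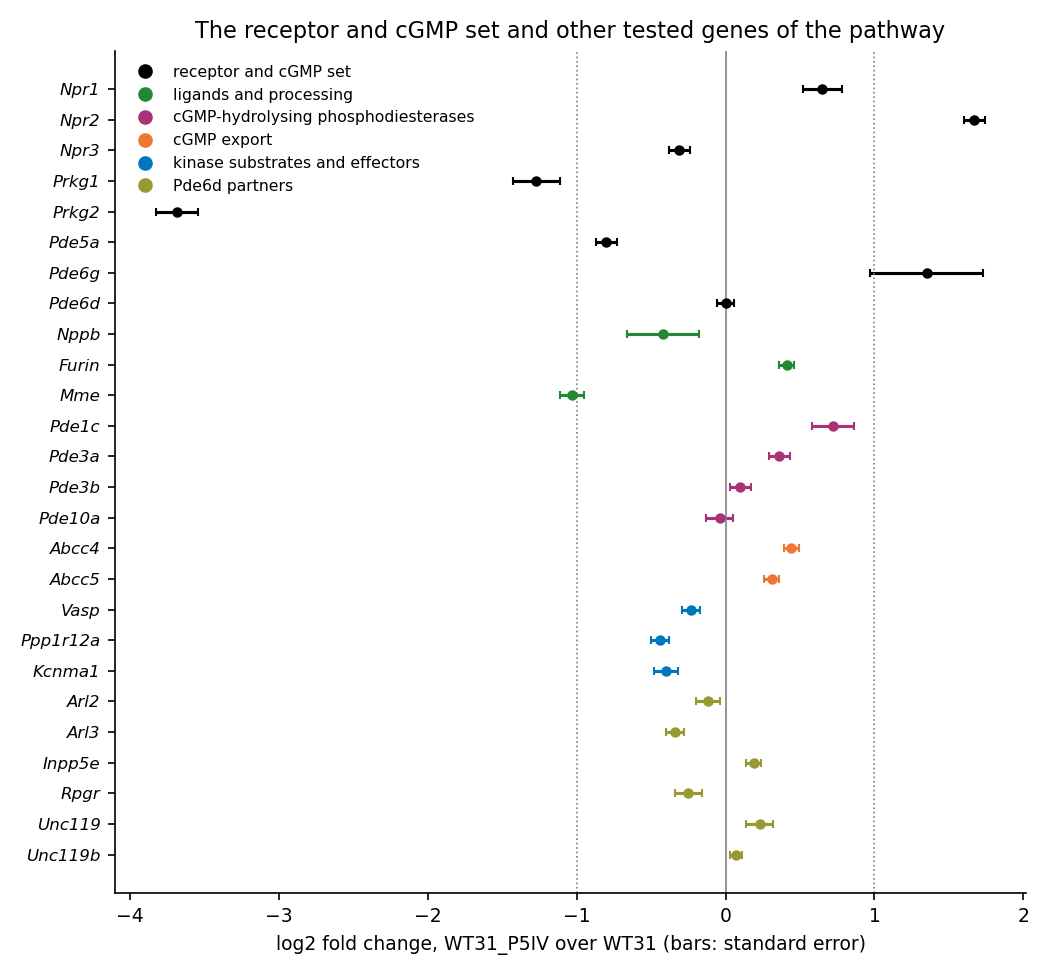
Log2 fold change of WT31_P5IV over WT31 with its standard error for the 8 tested genes of the set (black) and the 18 other tested genes of the pathway by role, with dotted lines at -1 and 1. Values of the set ran from -3.68 for Prkg2 to 1.67 for Npr2, and of the other genes only Mme lay past a dotted line, at -1.03.

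The rest of the pathway was followed through a list of 55 genes in 8 roles, of which 18 were tested, 13 were called (7 higher, 6 lower; 4 higher and 8 lower on the TPM scales) and 9 did not overlap. The shares over all tested genes were 68.5% called, 34.6% higher, 33.9% lower and 54.1% without overlap, so these counts were near the background. Their median log2 fold change was 0.01 and the median absolute value 0.33, near the values over all tested genes. Of the 37 genes with too few reads, 7 had 0 counts in every library and 4 had CPM ranges that did not overlap, against 4.52% of all genes with a count that were not tested. Only Mme of the 18 passed the fold filter as well, against 9.10% of all tested genes, and with upper-quartile scaling or on the log2(TPM + 1) scale none did. That count became 3 when any 1 of the 5 WT31 libraries was left out and 2 without WT31_P5IV library 1 or 4, as Cngb1, Guca1b or both entered the test when the filter on low counts was set for a smaller group.

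Of the ligands of the receptors, only Nppb was read well above the limit of 3 counts. C-type natriuretic peptide, Nppc, had 0 to 1 count in every library, atrial natriuretic peptide, Nppa, 0 to 5 counts, and Corin, which activates it, 0 counts. Nppb, the B-type peptide, entered the test and was not called, at 20 to 45 counts in WT31 and 16 to 28 in WT31_P5IV (log2 fold change -0.42, SE 0.24, adjusted p = 0.126, edgeR quasi-likelihood test). It is named, like Nppc, Nppa and Corin, after its values were seen. Mme, the neprilysin that degrades natriuretic and other peptides, fell in the subline from 8.20 ± 0.542 to 4.03 ± 0.390 CPM (SD, n = 5 each), with a log2 fold change of -1.03 (SE 0.08, adjusted p = 4.68e-08 in edgeR). Furin, a protease that cleaves propeptides, rose from 62.9 ± 3.99 to 83.4 ± 4.76 CPM (log2 fold change 0.41, SE 0.05, adjusted p = 4.73e-06 in edgeR).

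Other sources of cGMP were hardly read. None of 9 genes for membrane guanylyl cyclases and their activators and none of 7 for nitric oxide synthases and the soluble cyclase entered the test. Guca1b, an activator of retinal cyclases, had 2 to 8 counts in WT31 and 8 to 13 in the subline. Nos1 had 3 to 9 and 5 to 13 counts, and Gucy1b1, the common beta subunit of the soluble cyclase, and Nos2 had 0 counts in all libraries. Npr1 and Npr2 were thus the only guanylyl cyclases of those listed with enough reads for the test.

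Among the phosphodiesterases that can hydrolyse cGMP, 4 were tested besides Pde5a, and 2 of these were called, both higher, against 68.5% called and 34.6% called higher over all tested genes. Pde3a, an enzyme that cGMP inhibits, rose from 39.1 ± 4.27 to 50.3 ± 3.70 CPM (log2 fold change 0.36, SE 0.07, adjusted p = 3.28e-04 in edgeR), though not on the TPM scales (adjusted p = 0.0746 and 0.0719, limma). The second was Pde1c, chosen after its values were seen, at 2.15 and 3.55 CPM (log2 fold change 0.72, SE 0.14, adjusted p = 3.12e-04 in edgeR). Pde5a made up 36.5 ± 2.06% of the summed TPM of the catalytic enzymes in WT31 and 22.1 ± 1.91% in WT31_P5IV, while Pde3a made up 23.6 ± 0.959% and 33.3 ± 1.34%. The sum itself overlapped between the lines, at 17.8 to 24.1 and 14.9 to 19.0 TPM.

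**Figure D4:**
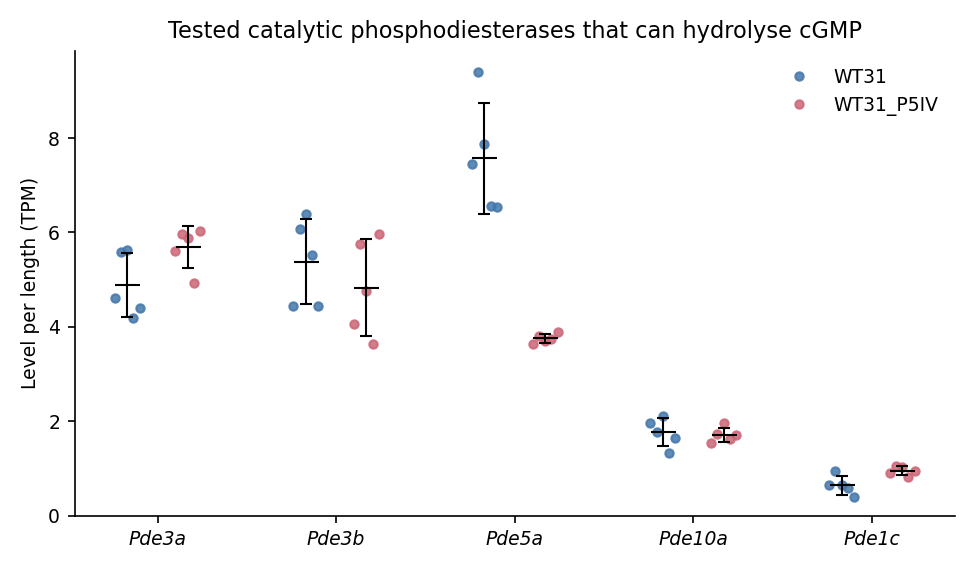
Levels per length in TPM of Pde5a and the 4 other tested catalytic phosphodiesterases that can hydrolyse cGMP, with points for libraries and black bars for mean ± SD (n = 5). Pde5a was the highest at 7.57 TPM in WT31 and lay at 3.76 TPM in WT31_P5IV, where the means of Pde3a and Pde3b were higher.

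Downstream, the 3 tested kinase substrates and effectors were each called lower in the subline, as were 33.9% of all tested genes. The CPM ranges overlapped for 1 of them, Vasp, named after its values were seen, while 54.1% of all tested genes did not overlap. The highest mean TPM over the 10 libraries was that of Ppp1r12a (70.5 TPM), the myosin phosphatase subunit that Prkg1 acts on, at 173 ± 16.3 and 127 ± 2.67 CPM (log2 fold change -0.44, SE 0.06, adjusted p = 5.04e-06 in edgeR). None of 6 cGMP-gated channel genes entered the test, and Cngb1 had 1 to 4 counts in WT31 and 7 to 14 in WT31_P5IV. Both exporters of cyclic nucleotides were called higher, as were 34.6% of all tested genes, with Abcc5 at 49.5 ± 3.04 and 61.6 ± 3.55 CPM (log2 fold change 0.31, SE 0.05, adjusted p = 6.02e-05 in edgeR), a call that was lost on the TPM scales (adjusted p = 0.0597 and 0.0609, limma). All 6 genes listed beside Pde6d for the transport of lipid-modified proteins were tested, and 2 rose and 2 fell, near the 68.5% called over all tested genes. Arl2, a small GTPase that releases cargo from Pde6d, was not called at 48.1 ± 5.29 and 44.3 ± 4.04 CPM (log2 fold change -0.12, SE 0.08, adjusted p = 0.183 in edgeR). It was called lower on the TPM scales (-0.31, adjusted p = 0.00159 and 0.00165, limma), where all genes were shifted by a median of -0.167 and -0.159, and with every gene of at least 1 count in the fit (-0.17, adjusted p = 0.0187 in edgeR).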

How the data were processed

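RNA-seq of cultured WT31 and WT31_P5IV cells was used, with 5 libraries per group, numbered as in the sample titles. Reads were trimmed (Trim Galore 0.6.4) and pseudoaligned to GRCm38.p6 transcripts (kallisto 0.4.6, per the submitters' processing notes, a version that differs from that in the methods). The authors deposited estimated counts summed per gene, which are not normalized, and TPM values, which the authors also took from kallisto. The labels name different sequencers for the series and for library preparation. Identifiers were matched to GENCODE M21 without their version, which holds 55144 of 55385.

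Estimated counts were rounded. Genes passing filterByExpr were scaled by TMM and tested by edgeR 4.0.16 (glmQLFit, then glmQLFTest) under R 4.3.3. Adjusted p-values are Benjamini-Hochberg values over the whole table. CPM used the same scaling. SE was computed from the log2 fold change and the F statistic. The fit was tested on simulated data with 200 genes changed, far fewer than were called here, so that check did not cover so wide a contrast. Alternatives were DESeq2 1.42.0, limma 3.58.1 (voom, log2(TPM + 0.1), log2(TPM + 1)), upper-quartile scaling, other filters, a fold filter of 2 on the log2 scale, a replicate block and each library left out.

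The genes, lists and tests were chosen with earlier results of these data known. Named genes were the 9 genes, pathway genes past the fold filter, the gene of highest mean TPM in each role, the 3 genes most like each receptor and the leading gene of each marker list. Other marker, cyclase, synthase and phosphodiesterase genes, most of them at or near 0 counts, were named after their values were seen. No libraries were duplicates (chi-square per gene 2.35 to 22.18 over 20 pairs). Shared sequence was counted in words of 31 bases.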

Additional observations from a re-analysis of the deposited data

How the results depend on the processing

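The 7 calls of the set and their directions were the same without any single library, in which the log2 fold change ranged from 0.55 to 0.72 for Npr1, 1.61 to 1.70 for Npr2, -0.37 to -0.26 for Npr3, -1.38 to -1.18 for Prkg1, -3.81 to -3.55 for Prkg2, -0.85 to -0.75 for Pde5a and 1.14 to 1.71 for Pde6g. On log2(TPM + 1), which shrinks low genes, values were 0.43 for Npr1, -0.35 for Prkg1, -1.72 for Prkg2 and 0.39 for Pde6g. Pde6d, which was not called on counts, was at -0.01 with DESeq2, -0.05 with every gene of at least 1 count and -0.17 on both TPM scales, the size of the general shift there, where it was called lower so that 8 genes of the set were called (3 higher, 5 lower), and at -0.06 to 0.04 without 1 library.

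With the fold filter, the set's 4 calls became 2 at 10 or more counts in every library, where Prkg2 and Pde6g were not tested, 2 on log2(TPM + 1) and 1 at a log2 fold change of 2. Over all genes the 1240 calls became 2319 with every gene of at least 1 count, 698 at 10 or more counts and 465 on log2(TPM + 1). For the other pathway genes, the 1 call became 0 with upper-quartile scaling, 4 with every gene of at least 1 count, 0 on log2(TPM + 1), 0 at a log2 fold change of 2 and 1 to 3 without 1 library, and the 7 higher calls became 4 on either TPM scale. Arl2 was called at -0.17 with every gene, -0.31 on the TPM scales, which includes the general shift of -0.167 and -0.159, and -0.11 with the replicate block (adjusted p = 0.0437).

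Libraries with the same number did not deviate together (r from -0.10 to 0.18, 1 of 5 pairs over 0.1), so they share only a number. With the replicate block, 7 genes of the set were called and 9380 of all genes instead of 9327. At 2 to 18 counts, Pde6g sits close to the limit of detection.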
